A study of Mus musculus with 6 samples.

Results

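Amino acid transporters of the plasma membrane were described in CD8⁺ T cells cultured with or without sphingosine-1-phosphate (S1P), a bioactive lipid and the ligand of the receptor S1PR1 and its relatives. The 10 genes were chosen by name as the transporters that supply activated T cells with cystine, leucine, arginine, glutamine and other amino acids. They are 10 of the 56941 genes in the count table, and all 10 were among the 13299 genes with enough counts to be tested. The members are Slc3a2, Slc7a11, Slc7a5 and Slc7a6, which form 1 family of paired carriers, Slc7a1 and Slc7a3, which carry cationic amino acids, and Slc1a4, Slc1a5, Slc38a1 and Slc38a2, which carry small neutral amino acids.

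RNA was sequenced from 3 vehicle-treated and 3 S1P-treated samples, labelled as biological replicates, of CD8⁺ T cells from the spleens of B6 mice. In both groups the naive cells were activated for 3 days on antibodies to CD3 and CD28 with recombinant IL-2, in medium that was supplemented with L-glutamine and β-mercaptoethanol, and S1P at 5 µM or vehicle was given 24 h after activation. By the labels the cultures began from purified naive CD8⁺ T cells, while the study's methods allow purified naive T cells or total splenocytes. The comparison asks which transporter transcripts differ after S1P.

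Activated T cells take up amino acids to build protein and nucleotides and to make glutathione, the main thiol of the cell. SLC3A2 (CD98) is a heavy chain that brings light chains of the SLC7 family to the cell surface, where SLC7A5 exchanges large neutral amino acids such as leucine and SLC7A11 exchanges cystine for glutamate. When amino acids are short or the endoplasmic reticulum is under stress, kinases of the integrated stress response raise translation of ATF4, a transcription factor with known targets among amino acid transporters and biosynthetic enzymes.

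Total counts lay between 12048880 and 17384084 per sample. S1P replicate 2 stood apart with 7.80% of its counts on mitochondrial genes, against 4.10% to 4.93% in the other 5 samples. The labelled cell type was checked against marker genes. Cd8a had 3060, 3694 and 3058 normalized counts in vehicle-treated and 2122, 1944 and 2100 in S1P-treated samples. Cd4 had 2968, 2743 and 3282 in vehicle-treated and 2872, 3749 and 3039 in S1P-treated samples. Cd4 thus lay above Cd8a in every S1P-treated sample, in counts and per length of exon. Per length of exon, Cd4 lay below Cd8a in every vehicle-treated sample. Both CD8 chains were called lower after S1P in edgeR, Cd8a at -0.67 on the log2 scale (adjusted p = 2.43e-04) and Cd8b1 at -0.55 (adjusted p = 0.00767). Of 4 CD4 T cell markers 2 were called higher, Zbtb7b at 0.37 (adjusted p = 0.00886) and Cd40lg at 0.50 (adjusted p = 0.0134), and Cd4 at 0.10 (adjusted p = 0.487) was not called. The other 6 genes of the CD8 T cell list, which CD4 T cells express as well, held 1 called higher, Cd2 at 0.33 (adjusted p = 0.0131), and 5 not called. The CD4 list's summed level was 229 to 272 CPM (counts scaled to a common library total) in vehicle-treated and 252 to 319 in S1P-treated samples. For the CD8 T cell list the sum was 1599 to 1863 CPM in vehicle-treated and 1452 to 1679 in S1P-treated samples. It includes the 6 genes that CD4 T cells express as well, so the sums of these lists do not compare CD8 with CD4 T cells. Over 8 B cell markers, of which 1 was called higher and 2 lower, the sum was 565 to 708 and 596 to 696. Of 10 myeloid markers only Mpeg1 and Cd68 were tested, and the other 8, Lyz2, Cd14 and Csf1r among them, had at most 8 counts in a sample. The sum over 5 NK cell markers was 2.71 to 3.54 and 2.59 to 4.21 CPM. Transcripts of CD4 T cells and B cells were present in every sample, and their part in the results on the transporters was not tested. In bulk RNA, fewer cells of a type and less RNA per cell cannot be told apart.

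S1P-treated samples held more Slc7a11, Slc7a3 and Slc1a4 RNA and less Slc7a6 RNA than vehicle-treated samples. These 3 rises and 1 fall passed both thresholds, which were 0.05 for the adjusted p of edgeR's quasi-likelihood test and 0.3 for the size of the log2 fold change. Among all tested genes 23.1% passed both thresholds, 12.7% as higher and 10.4% as lower after S1P. The other 6 members, which include the most abundant ones, did not pass, although Slc3a2 and Slc38a1 had an adjusted p under 0.05 with smaller changes, where 28.5% of all tested genes passed on the adjusted p alone. The median log2 fold change was 0.08 over the 10 members and 0.01 over all tested genes. The ranges of normalized counts were separate between groups in 7 of the 10 members and in 45.6% of all tested genes. The plot of normalized counts by sample shows each member in the 6 samples.

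**Figure D1:**
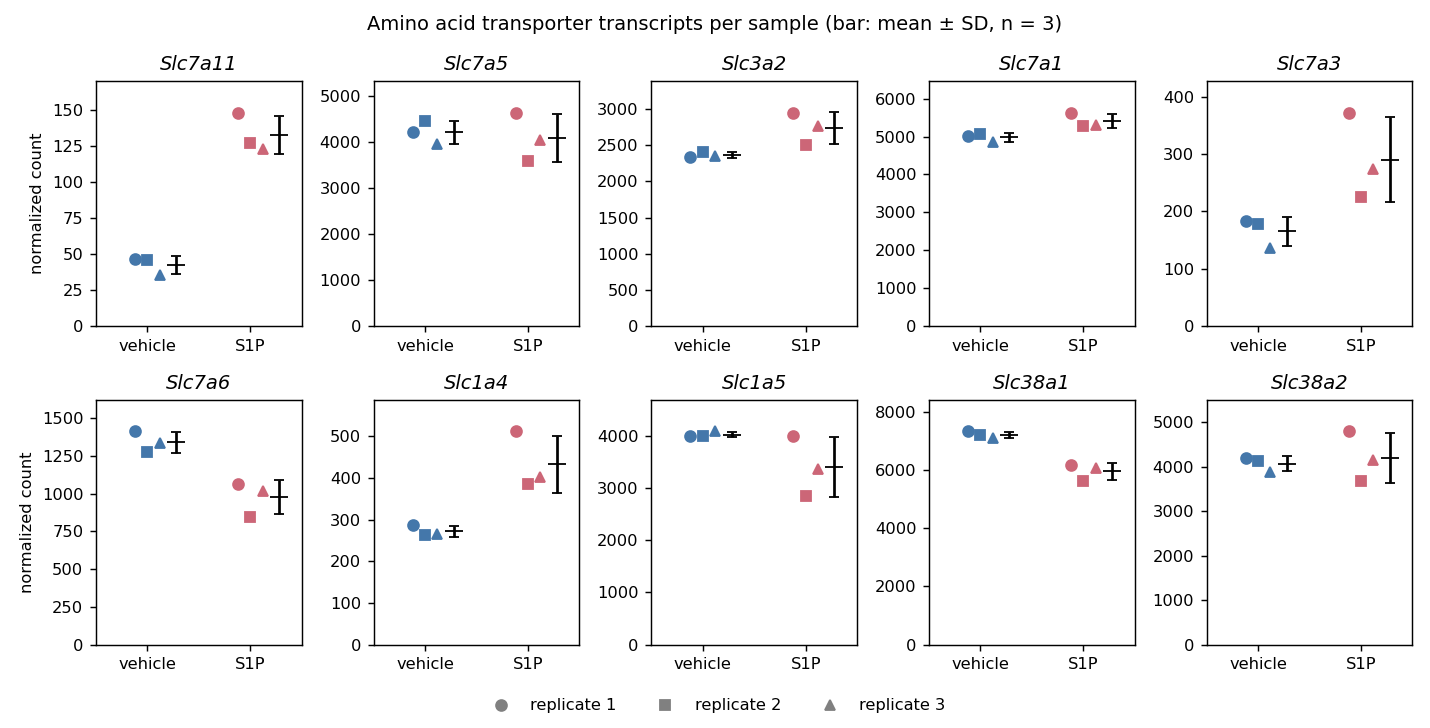
Normalized counts of the 10 transporter genes (y axes, each from 0) in 3 vehicle-treated and 3 S1P-treated samples (x axis), with marker shapes for the replicate number and black bars for the mean ± SD of a group. Slc7a11, Slc7a3 and Slc1a4 lie higher and Slc7a6 lower in all 3 S1P-treated samples, while the groups of Slc7a5, Slc1a5 and Slc38a2 overlap.

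Slc7a11 encodes xCT, the light chain that imports cystine, the oxidized dimer of cysteine, in exchange for glutamate. It had the largest change of the 10 members. Its normalized counts were 46.7, 45.4 and 35.1 in vehicle replicates 1 to 3 and 148, 127 and 123 in S1P replicates 1 to 3. All 3 S1P-treated samples thus lay well above all 3 vehicle-treated ones. The mean rose from 42.4 ± 6.39 to 132 ± 13.4 (SD, n = 3 each), a 3.13-fold change. The log2 fold change was 1.65 ± 0.17 (SE), with a 95% interval from 1.27 to 2.02 and an adjusted p of 7.90e-05 in edgeR. This rested on 55, 42 and 37 counts in the vehicle-treated and 178, 98 and 106 counts in the S1P-treated samples, so that the level was low in both groups. The call held in all 16 alternative settings, with log2 fold changes from 1.52 to 1.73.

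The Slc7a11 gene lies on the minus strand at chr3:49846975-50398070 (GRCm39), and none of the bases of its 14 merged exons lie under another annotated gene. Its promoter is shown because, among the 10 members, it held the most matches to the motif of the amino acid response. The 250 bases before each start site were searched on both strands for TGATGNAA, the core of the C/EBP-ATF response element that ATF4 binds with a partner. This core was found in 232 of 11273 promoters of tested protein-coding genes (2.06%) and in 2 of the 10 members. The Slc7a11 promoter, chr3:50398071-50398313 on the minus strand of GRCm39, is printed 5′ to 3′ with the 2 matches in capitals, the first on the strand shown and the second on the opposite strand, 65 and 46 bases before the start site.
Slc7a11: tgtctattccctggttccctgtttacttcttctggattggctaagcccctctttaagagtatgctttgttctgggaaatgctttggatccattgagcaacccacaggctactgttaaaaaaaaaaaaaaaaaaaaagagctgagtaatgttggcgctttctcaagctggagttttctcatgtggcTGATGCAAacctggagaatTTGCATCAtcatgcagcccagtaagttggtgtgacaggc
Over genes called higher, called lower and not called, 2.76%, 1.45% and 2.03% of promoters held the core. A match describes these letters only, and no binding was measured here.

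Slc3a2, the heavy chain that Slc7a11, Slc7a5 and Slc7a6 share, was not called. Its normalized counts were 2336, 2407 and 2347 in vehicle-treated and 2945, 2502 and 2765 in S1P-treated samples. Every S1P-treated sample lay above every vehicle-treated one, with S1P replicate 2 closest to them. The means were 2363 ± 37.9 and 2737 ± 223, and the log2 fold change of 0.21 (95% interval 0.06 to 0.37, edgeR adjusted p = 0.0454) stayed under the fold threshold. This adjusted p was over 0.05 with DESeq2, the replicate block, total counts only, no filter and every left-out replicate but S1P replicate 2, at up to 0.153. Of the exon bases of Slc3a2, 15.9% lie under Snhg1 on the opposite strand, and the strand setting of the counting is not given in the sources used here.

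Slc7a5 encodes LAT1, the leucine carrier that feeds mTORC1, and had the highest mean level of the members per length. Its normalized counts were 4224, 4455 and 3961 in vehicle-treated and 4638, 3597 and 4049 in S1P-treated samples. S1P replicate 1 was the highest and S1P replicate 2 the lowest of the 6 samples, so the groups overlapped. The log2 fold change was -0.04, with a 95% interval from -0.24 to 0.16 and an edgeR adjusted p of 0.777, and it was 0.05 without S1P replicate 2 (adjusted p = 0.655). The promoter of Slc7a5 is shown for contrast, since it held no TGATGNAA but 1 CACGTG, the E-box bound by MYC and related factors, which was present in 7.99% of all searched promoters and in 2 of the 10 members. It is printed for chr8:122634434-122634683, minus strand, with the E-box in capitals, 157 bases before the start site.
Slc7a5: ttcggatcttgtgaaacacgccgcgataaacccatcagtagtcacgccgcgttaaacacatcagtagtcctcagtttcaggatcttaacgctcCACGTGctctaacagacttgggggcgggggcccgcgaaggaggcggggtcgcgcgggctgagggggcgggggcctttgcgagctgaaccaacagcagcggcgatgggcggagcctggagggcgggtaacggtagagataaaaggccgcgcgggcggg
The other E-box among the members lay 249 bases before the start site of Slc7a6, within annotated exon bases of that gene.

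Slc7a6 encodes y+LAT2, a light chain that exchanges cationic amino acids such as arginine for neutral ones. It was the only member called lower. Its normalized counts were 1412, 1274 and 1338 in vehicle-treated and 1064, 847 and 1018 in S1P-treated samples, and all 3 S1P-treated samples lay below all vehicle-treated ones. The mean fell from 1341 ± 69.4 to 977 ± 114, which is 0.730 times the vehicle level. The log2 fold change was -0.45 ± 0.09 (SE; 95% interval -0.65 to -0.26, edgeR adjusted p = 0.00313). The gene lies on the plus strand at chr8:106895139-106925346.

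The heavy chain and its light chains were compared as levels per length, as CPM per kilobase of exon. Slc7a11 made up 0.228%, 0.215% and 0.182% of the summed light chain level in vehicle-treated and 0.687%, 0.757% and 0.647% in S1P-treated samples. The share of Slc7a11 was thus higher in every S1P-treated sample. Its size depends on the gene length used, with a difference between the group means of 0.489 percentage points per merged exon length and 0.730 per longest transcript. Its mean went from 0.208% ± 0.0235 to 0.697% ± 0.0557, and an exact two-sided permutation test gave p = 0.1, the smallest value that 3 samples against 3 can give. Slc7a6 made up 15.8% ± 1.22 and 12.2% ± 0.520, and Slc7a5 83.8% ± 1.21 and 86.8% ± 0.452, of the light chain level in the vehicle-treated and S1P-treated group.

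Relative to its light chains, Slc3a2 was at 0.378, 0.379 and 0.405 in vehicle-treated and 0.456, 0.497 and 0.485 in S1P-treated samples. The groups did not overlap in this ratio, which averaged 0.388 ± 0.0154 and 0.479 ± 0.0212 (exact two-sided permutation p = 0.1). Of the other light chains, Slc7a7 had 9 to 25 counts per sample and was not called in edgeR (log2 fold change 0.51, adjusted p = 0.295), Slc7a8 had 3 to 8 counts and was not tested, and Slc7a10 had no count in any sample. The plot of light chain composition shows the same shares and the ratio by sample.

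**Figure D2:**
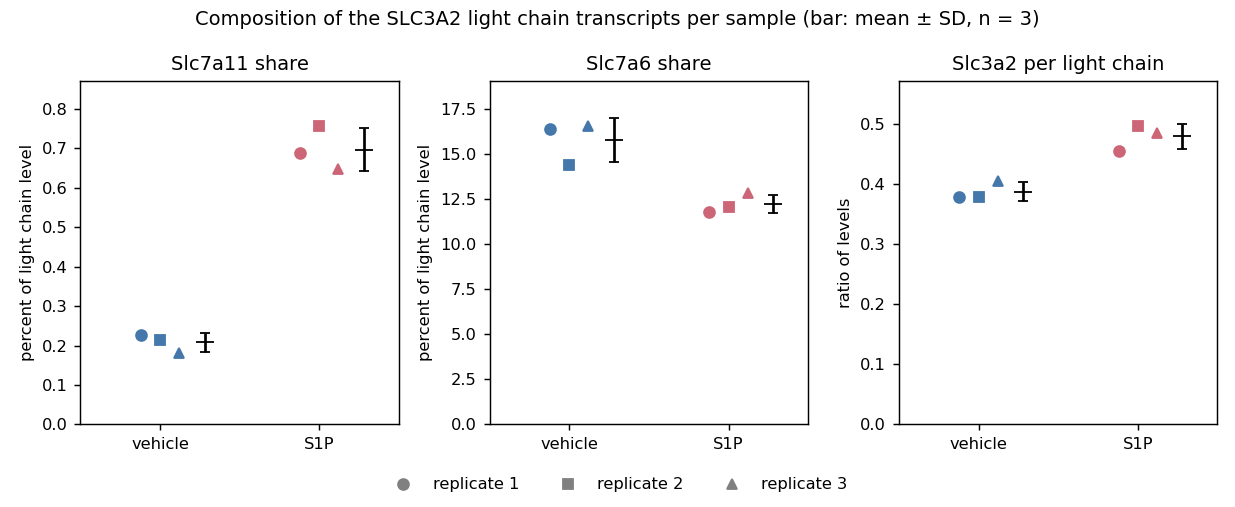
Share of Slc7a11 and of Slc7a6 in the summed level of the SLC3A2 light chains (percent, y axes of the left and middle panels) and level of Slc3a2 per light chain level (ratio, right panel) in 3 vehicle-treated and 3 S1P-treated samples, with black bars for the mean ± SD. The Slc7a11 share is 0.182% to 0.228% with vehicle and 0.647% to 0.757% with S1P, and the groups overlap in none of the 3 panels.

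The carriers of cationic amino acids differed from each other in level and in change. Slc7a3 encodes CAT3, the less abundant of the pair here. Its normalized counts were 183, 177 and 136 in vehicle-treated and 372, 225 and 274 in S1P-treated samples, so that even the lowest S1P-treated sample lay above the highest vehicle-treated one. The mean rose from 165 ± 25.8 to 290.3 ± 74.6, a 1.78-fold change, with a log2 fold change of 0.83 ± 0.18 (SE; 95% interval 0.44 to 1.22, edgeR adjusted p = 0.00528). Slc7a3 lies on the minus strand at chrX:100122745-100129631.

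Slc7a1 encodes CAT1, the main arginine importer of many proliferating cells. It had 5010.0, 5080.2 and 4857 normalized counts in vehicle-treated and 5622, 5285 and 5301 in S1P-treated samples. The groups did not overlap, but the distance was small. The log2 fold change of 0.12 (95% interval -0.02 to 0.26) had an edgeR adjusted p of 0.197 and was not called.

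Slc1a4 and Slc1a5 are sister carriers of neutral amino acids, with log2 fold changes of opposite sign, of which that of Slc1a4 passed both thresholds. Slc1a4 encodes ASCT1, which exchanges alanine, serine and cysteine. It had 286, 264 and 265 normalized counts in vehicle-treated and 512, 385 and 402 in S1P-treated samples, with no overlap. The mean rose from 272 ± 12.6 to 433 ± 68.7, a 1.60-fold change, and the log2 fold change was 0.68 ± 0.12 (SE; 95% interval 0.43 to 0.93, edgeR adjusted p = 0.00141). The gene lies on the minus strand at chr11:20252180-20282774, and its promoter held none of the 3 motifs searched.

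Slc1a5 encodes ASCT2, a major glutamine carrier of activated T cells. Its normalized counts were 3989, 3993 and 4081 in vehicle-treated and 4002, 2854 and 3367 in S1P-treated samples. S1P replicate 1 lay within the range of the vehicle-treated samples and the other 2 S1P-treated samples lay below it. The coefficient of variation was 1.30% among vehicle-treated and 16.9% among S1P-treated samples. The log2 fold change was -0.24 (95% interval -0.46 to -0.01, edgeR adjusted p = 0.104), which was not called, and it was -0.37 (adjusted p = 0.00548) without S1P replicate 1 and -0.12 (adjusted p = 0.200) without S1P replicate 2.

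Slc38a1 and Slc38a2 encode SNAT1 and SNAT2, sodium-coupled importers of glutamine and alanine. Slc38a1 had 7343, 7206 and 7123 normalized counts in vehicle-treated and 6173, 5624 and 6098 in S1P-treated samples. Every S1P-treated sample was lower, by a margin near the fold threshold. The means were 7224 ± 111 and 5965 ± 298, and the log2 fold change of -0.28 (95% interval -0.42 to -0.13, edgeR adjusted p = 0.0105) was not called. It was called lower at -0.30 when S1P replicate 1 was left out, and its adjusted p was 0.0537 without vehicle replicate 1. In the promoter of Slc38a1, chr15:96540281-96540371 on the minus strand, the ATF4-type core was found once on the strand shown, 56 bases before the start site, and it is printed because this member did not rise.
Slc38a1: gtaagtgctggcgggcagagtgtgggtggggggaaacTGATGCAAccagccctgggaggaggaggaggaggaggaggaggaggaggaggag
Slc38a2 had 4203, 4122 and 3881 normalized counts in vehicle-treated and 4793, 3675 and 4151 in S1P-treated samples. S1P replicate 1 was the highest and S1P replicate 2 the lowest of the 6 samples. The log2 fold change of 0.05 (95% interval -0.15 to 0.25, edgeR adjusted p = 0.722) became -0.06 without S1P replicate 1. The third motif searched, TGACNNNGC, the core of the antioxidant response element bound by NRF2, was found in 10.7% of all searched promoters and in 1 member, Slc38a2, within annotated exon bases of that gene. For 5 of the 10 members at least 100 bases of the window lay in exons of the gene itself, and for 4 members none did.

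**Figure D3:**
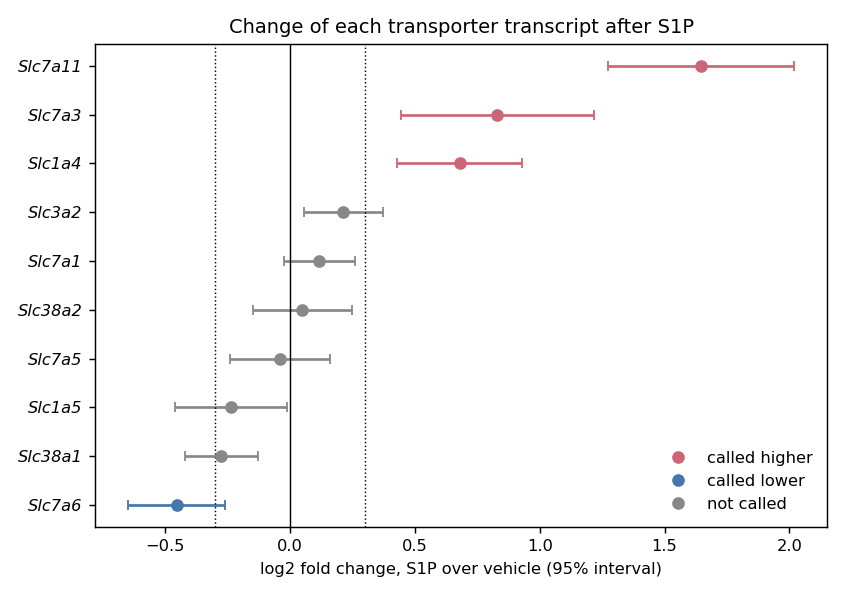
Log2 fold change of each transporter transcript, S1P over vehicle (x axis), with its 95% interval, ordered by size. Dotted lines mark the fold threshold of 0.3 in each direction, and the intervals of Slc7a11, Slc7a3 and Slc1a4 lie wholly above the upper line.

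Levels were ordered per length, as mean CPM per kilobase. In vehicle-treated samples Slc7a5 came first with 74.4 ± 4.37, followed by Slc1a5 with 50.4 ± 0.654, Slc3a2 with 34.4 ± 0.552, Slc7a1 with 28.7 ± 0.658, Slc38a2 with 28.5 ± 1.17 and Slc38a1 with 25.9 ± 0.397. Slc7a6 was at 14.0 ± 0.723, Slc1a4 at 4.45 ± 0.207, Slc7a3 at 2.31 ± 0.362 and Slc7a11 at 0.185 ± 0.0279. Only Slc7a1 and Slc38a2 had overlapping ranges as neighbours in this order. The order was the same in S1P-treated samples, from 72.3 ± 9.22 for Slc7a5 to 0.579 ± 0.0585 for Slc7a11, where Slc1a5 and Slc3a2 overlapped as well. The upper part of this order depends on the gene length used. With the longest transcript in place of merged exons, an alternative chosen after seeing the data, Slc38a1 moved from rank 6 to rank 3 in vehicle-treated samples with 62.1 ± 0.952, above Slc3a2 with 51.8 ± 0.831, and the ranges of Slc7a5 and Slc1a5 overlapped. Slc7a6, Slc1a4, Slc7a3 and Slc7a11 kept the last 4 places in both groups.

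The 3 members called higher were the 3 with the lowest levels. Together Slc7a11, Slc7a3 and Slc1a4 made up 2.64% of the summed level of the 10 members in vehicle-treated and 4.51% in S1P-treated samples. The summed level itself was 265, 268 and 256 CPM per kilobase in vehicle-treated and 288, 231 and 257 in S1P-treated samples, so the groups overlapped. The means were 263 ± 6.13 and 259 ± 28.7, and this sum was not tested.

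**Figure D4:**
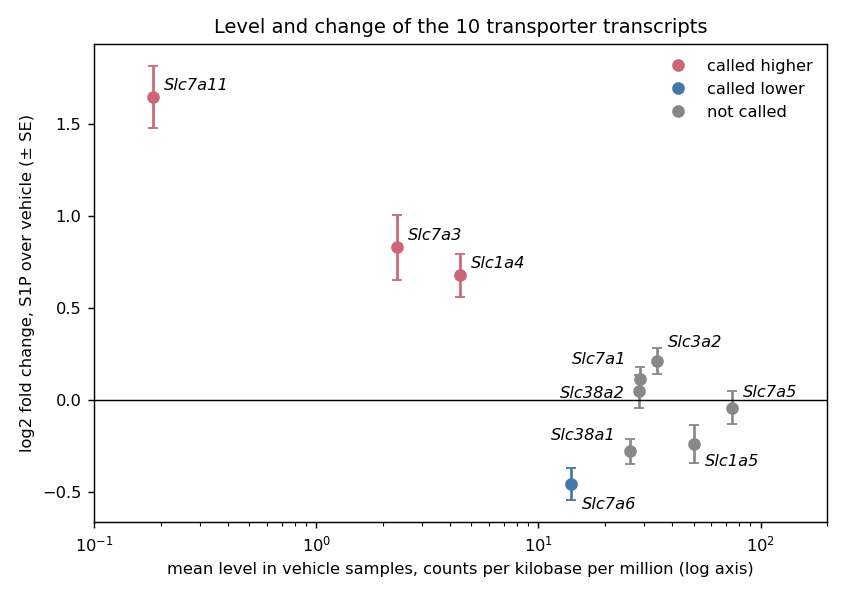
Log2 fold change ± SE, S1P over vehicle (y axis), against the mean level in vehicle-treated samples in CPM per kilobase (x axis, log scale) for the 10 members. The 3 members called higher lie at 0.185 to 4.45, and the 7 others at 14.0 to 74.4.

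S1P-treated samples differed among themselves in the same way for nearly all members. S1P replicate 1 was the highest of the 3 S1P-treated samples for 10 of 10 members, as it was for 4648 of the 13299 tested genes, and S1P replicate 2 was the lowest for 9 of 10 members, as for 5320 of all tested genes. Slc7a11 was the exception, with its lowest value in S1P replicate 3. The median ratio of S1P replicate 1 to S1P replicate 2 was 1.27 over the members and 1.01 over all tested genes, and it was largest for Slc7a3 at 1.65 and smallest for Slc7a1 at 1.06. S1P replicate 2 is also the library with the highest mitochondrial share, whose part in these values was not tested. Without S1P replicate 2, Slc7a11, Slc7a3, Slc1a4 and Slc7a6 were still called.

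Among other amino acid transporters of the plasma membrane, few were expressed. Of 35 listed genes 7 were tested, and no untested one had more than 19 counts in a sample. Slc6a9, which encodes the glycine carrier GLYT1, was called higher, with 112, 107 and 104 normalized counts in vehicle-treated and 240, 145 and 175 in S1P-treated samples (log2 fold change 0.81, edgeR adjusted p = 0.00549). Of its exon bases 33.8% lie under genes of the opposite strand. The other 6 were not called, so that 14.3% of the 7 were called higher, near the 12.7% of all tested genes, and their median was 0.05. Slc1a1, a glutamate and cysteine carrier that was named after its values were seen, was not tested. It had 3, 2 and 4 counts in vehicle-treated and 8 to 19 in S1P-treated samples. Leaving out any 1 library gave 2 calls in place of 1. These were Slc6a9 with Slc1a1 (without any vehicle replicate or S1P replicate 3), which passed the looser count filter of those fits only through its S1P-treated samples, with Slc16a10 at -0.34 (without S1P replicate 1) or with Slc43a2 at 0.35 (without S1P replicate 2). Of 9 lysosomal amino acid transporters none was called, against 23.1% of all tested genes, with a median of 0.04, and without S1P replicate 1 Mfsd12 and Slc36a1 were called lower and without S1P replicate 2 Slc38a9 was called higher.

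Carriers of the mitochondrial inner membrane for amino acids and glutathione lay on the lower side. Of 14 listed genes 12 were tested, 5 were called lower (41.7%, against 10.4% of all genes) and none higher, and the median log2 fold change was -0.31. Slc25a15, the ornithine carrier, fell by 0.55 (edgeR adjusted p = 0.00841), Slc25a38, a glycine carrier, by 0.49 (adjusted p = 0.0203), Slc25a22, a glutamate carrier, by 0.48 (adjusted p = 0.00614) and Sfxn1, a serine carrier, by 0.42 (adjusted p = 7.68e-04) on the log2 scale. Sfxn1 had 2817, 2763 and 2724 normalized counts with vehicle and 1998, 2032 and 2169 with S1P. Without vehicle replicate 1 the count of calls was 3, and Slc25a38 lost its call without vehicle replicate 1 or 3.

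Genes of the amino acid response, which contain known regulators and targets of ATF4, were mostly higher after S1P. Of 14 tested genes 8 were called higher (57.1%, against 12.7% of all genes) and none lower, with a median log2 fold change of 0.61. The study had already named Atf3, Ddit3, Trib3, Cebpb and Eif2ak2 as higher after S1P in these data. The list was chosen with earlier results known, so this share is not independent of them. Atf3, a stress-induced transcription factor, rose by 1.65 (adjusted p = 6.42e-06), Trib3, a pseudokinase that feeds back on ATF4, by 1.54 (adjusted p = 8.13e-05) and Eif2ak2, the kinase PKR, by 1.03 (adjusted p = 4.43e-04). Ddit3, which encodes CHOP, rose by 0.98 (adjusted p = 3.37e-04), and 82.4% of its exon bases lie under genes of the opposite strand, as do 21.8% of those of Nupr1. Nupr1, a stress-induced chromatin protein, had 10, 9 and 4 counts with vehicle and 45, 38 and 34 with S1P, and so was tested only because of its counts in the S1P group (log2 fold change 2.49, edgeR adjusted p = 3.20e-04). With a filter of at least 10 counts in every sample it was not tested, and 7 genes of the list were called.

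Atf4 itself had 4802, 4941 and 4762 normalized counts in vehicle-treated and 5988, 5351 and 5759 in S1P-treated samples. All 3 S1P-treated samples were higher, but the log2 fold change of 0.24 (edgeR adjusted p = 0.0220) was under the fold threshold. Transcripts of the kinases of amino acid shortage and of endoplasmic reticulum stress were not called in edgeR. They were at 0.18 for Eif2ak4 (GCN2, adjusted p = 0.129) and 0.12 for Eif2ak3 (PERK, adjusted p = 0.383). These are RNA levels, and kinase activity was not measured in these samples. Nfe2l2, which encodes NRF2, a known activator of Slc7a11, was at 0.17 (adjusted p = 0.131), and Myc, a known activator of Slc7a5 and Slc1a5, was at 0.14 (adjusted p = 0.120).

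Genes of amino acid sensing and the mTORC1 pathway were called in both directions, in shares near those of all tested genes. Of 33 tested genes 6 were called higher (18.2%, against 12.7% of all genes) and 5 lower (15.2%, against 10.4%), and the median log2 fold change was 0.03. The largest rises were in Ddit4 (1.51, adjusted p = 1.22e-04), an inhibitor of mTORC1, Rragd (0.96, adjusted p = 8.35e-04), a Rag GTPase, Eif4ebp1 (0.85, adjusted p = 3.84e-04), a repressor of cap-dependent translation, and Sesn2 (0.63, adjusted p = 0.00137), the leucine-sensing sestrin, all by edgeR. Rragb, another Rag GTPase, fell by 0.61, Flcn, which acts on Rag GTPases, by 0.48, Nprl3, a GATOR1 subunit, by 0.45 and Sec13, a GATOR2 and coat protein subunit, by 0.43 (edgeR adjusted p from 9.29e-04 to 0.0170). The count of 11 calls was 7 without vehicle replicate 2 or vehicle replicate 3. Rragb lost its call without vehicle replicate 2 or S1P replicate 3, Flcn without vehicle replicate 2 or 3, and Nprl3, whose exons overlap Mpg on the opposite strand by 32.0%, without vehicle replicate 3.

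Genes that make and use cysteine and glutathione, the product of the cystine that SLC7A11 imports, were called in both directions. Of 16 tested genes 3 were called higher (18.8%, against 12.7% of all genes) and 4 lower (25.0%, against 10.4%), with a median of -0.20. Cth, which makes cysteine from cystathionine, had 99.4, 124 and 118 normalized counts with vehicle and 347, 272 and 286 with S1P, and was called higher in edgeR (log2 fold change 1.42, adjusted p = 4.67e-05). Chac1, which degrades glutathione, rose by 0.70 (adjusted p = 0.0129) and Gpx4, which reduces lipid peroxides, by 0.38 (adjusted p = 0.00289), and the call of Chac1 was lost without vehicle replicate 3.

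The 4 genes of this list that were called lower were Txnrd1, Gpx1, Prdx1 and Txn1. Txnrd1, thioredoxin reductase, had 3665, 3600.1 and 3591 normalized counts with vehicle and 2141, 2174 and 2334 with S1P (log2 fold change -0.71, edgeR adjusted p = 4.03e-05). Gpx1, a glutathione peroxidase, fell by 0.71 (adjusted p = 0.0380), Prdx1, a peroxiredoxin, by 0.59 (adjusted p = 0.00353) and Txn1, thioredoxin, by 0.36 (adjusted p = 0.0112). Of the exon bases of Gpx1, 85.3% lie under a gene of the opposite strand. Gpx1 lost its call without vehicle replicate 1, vehicle replicate 3 or S1P replicate 1, and Txn1 without vehicle replicate 2, vehicle replicate 3 or S1P replicate 2. The subunits of glutamate-cysteine ligase, the first enzyme of glutathione synthesis, were at -0.30 for Gclm (adjusted p = 0.0134) and -0.20 for Gclc (adjusted p = 0.0788), and neither was called, although Gclm, just under the fold threshold, was called lower at -0.30 with RLE factors and DESeq2, at -0.32 with total counts only and with no filter on low counts, and at -0.31 and -0.35 without vehicle replicate 3 and S1P replicate 3.

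Enzymes that make or use glutamine, asparagine and arginine were also called in both directions, with 5 called higher (27.8%, against 12.7% of all genes) and 3 lower (16.7%, against 10.4%) of 18 tested and a median of -0.15. Gls2, a mitochondrial glutaminase, rose by 1.11 (edgeR adjusted p = 0.00118), Gpt2, an alanine aminotransferase, by 0.83 (adjusted p = 0.00117), Asns, asparagine synthetase, by 0.81 (adjusted p = 2.73e-04) and Asl, argininosuccinate lyase, by 0.44 (adjusted p = 0.0120). Asns had 1303, 1557 and 1185 normalized counts with vehicle and 2618, 2125 and 2339 with S1P. Cad, which uses glutamine to start pyrimidine synthesis, fell by 0.75 (adjusted p = 0.00134), Odc1, which makes polyamines from ornithine, by 0.40 (adjusted p = 0.00113) and Ppat, which uses glutamine to start purine synthesis, by 0.32 (adjusted p = 0.0117). Without vehicle replicate 1 the count of 8 calls was 5. The call of Asl was lost without vehicle replicate 1, vehicle replicate 3 or S1P replicate 3. That of Ppat was lost without vehicle replicate 1 or S1P replicate 1, and with upper-quartile factors, where its log2 fold change was -0.29.

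**Figure D5:**
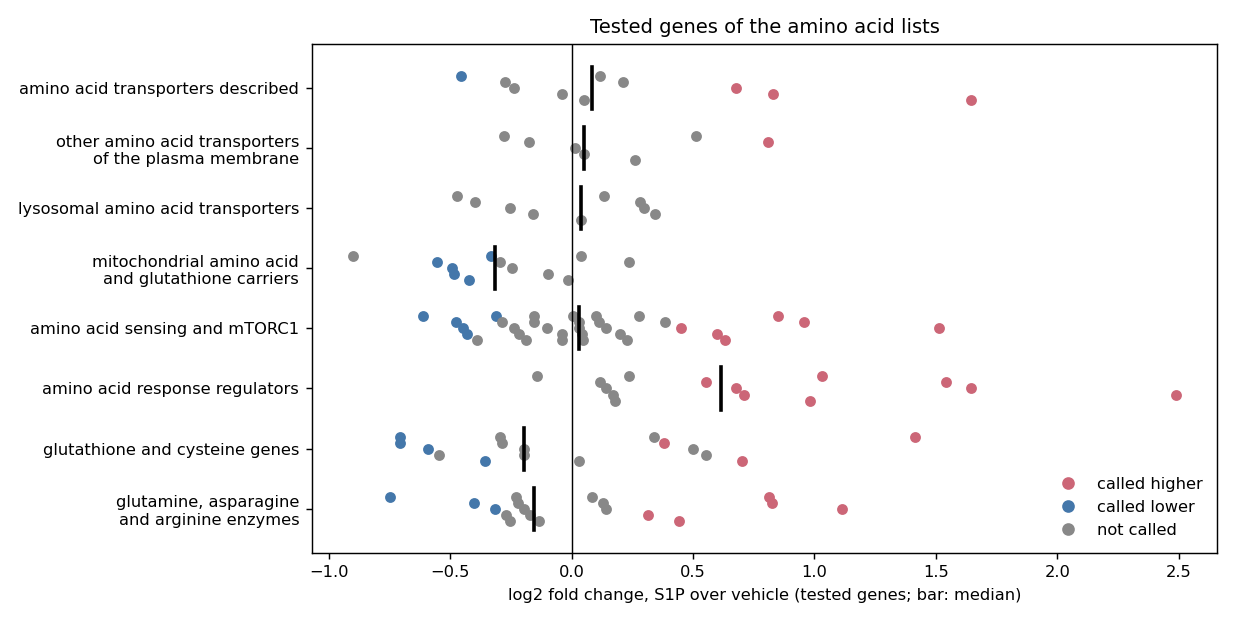
Log2 fold change, S1P over vehicle (x axis), of every tested gene in the 10 transporters described and 7 other lists (y axis), coloured by call, with a black bar at each list's median. The medians lie from -0.31 for mitochondrial carriers to 0.61 for amino acid response regulators, and that of the 10 transporters is 0.08.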

How the data were processed

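The authors trimmed paired-end reads of strand-specific poly(A) libraries with Trim Galore, aligned them with STAR to GRCm39 (the build in the submitters' processing notes) and counted them on genes with featureCounts. The table deposited by the authors holds the resulting raw counts per gene as whole numbers. How multi-mapping reads were handled, the strand setting and the annotation release are not given in the sources used here. All 6 columns were used.

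After edgeR's filterByExpr, counts were scaled with TMM factors, and treatment was tested by the quasi-likelihood test of edgeR 4.0.16 in R 4.3.3 (with limma 3.58.1), without other terms and with Benjamini-Hochberg adjustment over all 13299 genes tested. Genes were called by an adjusted p up to 0.05 together with a log2 fold change that reached 0.3 in either direction. Normalized counts are counts divided by the TMM-scaled library size, at the mean library size, and levels were also divided by the length of merged exons. Positions and symbols came from GENCODE vM39 of GRCm39, which holds 56323 of the 56941 identifiers. It lists Bmt2, a gene of the sensing list, as Samtor. Promoters are the up to 250 bases before the start of each gene's canonical transcript, cut at annotated exons of the gene where printed. All tests were checked on simulated counts, and the outcome of that check is not given here.

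The text names all members, up to 4 called rises and 4 called falls of each list, fixed regulators (Atf4, Ddit3, Eif2ak4, Eif2ak3, Nfe2l2, Myc, Gclc, Gclm, Chac1, Sesn2, Asns) and other light chains. The members and lists were chosen with earlier results of these data known. Slc1a1, Slc3a1, Slc38a11, Slc16a10, Slc43a2, Mfsd12, Slc36a1 and Slc38a9 were named after their values were seen. The p-values measure the spread between these samples. Replicates of a group differed by more than counting noise, with a chi-square per gene of 3.50 to 3.63 between vehicle-treated samples, 5.39 between S1P replicates 1 and 3, and 27.1 and 16.0 for the pairs with S1P replicate 2. Alternatives were other scaling factors, filters, thresholds, DESeq2 1.42.0, limma-voom, a block for the replicate number, and leaving out each library.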

Additional observations from a re-analysis of the deposited data

How the results depend on the processing

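Slc7a11 was called higher in all 16 alternatives, and Slc7a3 and Slc1a4 were called higher and Slc7a6 lower in all but the one that required a log2 fold change of at least 1. At that threshold the count fell to 1 of the 10 members and to 465 of all tested genes, and to 0 for other plasma membrane transporters, 0 for mitochondrial carriers, 1 for sensing and mTORC1 genes, 4 for response regulators, 1 for glutathione and cysteine genes and 1 for the enzymes. Other plasma membrane transporters had 4 calls with no filter on low counts, with Slc1a1, Slc3a1 and Slc38a11 added, and 2 on the adjusted p alone. Without single replicates their count was 2 each time, that of lysosomal transporters 0 to 2, of mitochondrial carriers 3 to 6, of sensing genes 7 to 11 and of the enzymes 5 to 8, beside 4 to 6 members, and the count of all genes called was 2119 to 3228. Without single replicates the Slc7a5 log2 fold change ran from -0.14 to 0.047 (without S1P replicate 2) and the Slc38a2 log2 fold change from -0.057 (without S1P replicate 1) to 0.14, and so changed sign. The cause was not tested. Slc38a1 was also called at -0.30 with total counts only and with no filter, where the median of all genes moved to 0.16. The ratios of light chains and the summed level kept their direction or moved by less than the spread. Deviations from the group mean correlated weakly between samples with the same replicate number, at 0.12, -0.01 and 0.05 for replicates 1 to 3. Between samples with different numbers the correlations were -0.10 to 0.05, so that of replicate 1 was the largest. With the replicate number as a block the number of all genes called was 3120 in place of 3071, with no member's call changed. The SE of the log2 fold change was 0.17 for Slc7a11, 0.18 for Slc7a3 and 0.06 for Slc7a1, so that smaller changes could be told from the spread for Slc7a1 than for the other 2.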
